A study of Mus musculus with 44 samples.

Results

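The mouse genes whose symbols begin with Mrpl or Mrps and a digit encode most of the proteins of the mitochondrial ribosome. They were chosen by symbol alone, with no measured value, and 78 of the 17158 RefSeq accessions in the files were members. By their known place in the particle, 51 belonged to the large subunit and 26 to the small subunit, and 46 had a bacterial counterpart whereas 31 are found only in mitochondria. Mrps36 was the remaining member. It carries the name by history and is known as a component of the 2-oxoglutarate dehydrogenase complex, and it was left out of the counts by subunit and class. For comparison there were 84 genes of cytosolic ribosomal proteins and 86 nuclear genes of oxidative phosphorylation subunits.

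Mitochondrial ribosomes translate the few mRNAs of the mitochondrial genome, all of which encode membrane subunits of the respiratory chain and the ATP synthase. Their RNAs come from that genome, but every one of their proteins is encoded in the nucleus, translated on cytosolic ribosomes and imported. Neurons draw most of their ATP from oxidative phosphorylation, and several of these genes are known disease genes in which the nervous system is affected.

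The series measured RNA, translation and poly(A) tails of mouse neurons. Primary cortical cultures came from C57BL6J pups of both sexes on the day of birth or 1 day later. From 2 days after plating they were exposed for 24 h to cytosine arabinoside, which kills dividing cells. Cultures at 14 days in vitro (DIV14) were left unstimulated, treated for 30 min with brain-derived neurotrophic factor (BDNF) or with glutamate and glycine (glu/gly), or given a lentivirus on day 5, whose synapsin promoter drove EGFP alone (GFP) or EGFP with the hairpin of miR-1 or miR-155. Cultures at DIV10 received KCl for 10 or 30 min or were KCl controls. Tissues were the hippocampus and the cortex of an adult male each, hippocampi of embryos at day 16, and the visual cortex of 8 males of 6 to 7 weeks, kept in darkness for 1 week, of which 4 then saw light for 1 h. The study made 6 of its culture samples in 2 batches, and the sources do not say which, so batch and treatment cannot be told apart there. Every culture and every tissue other than the visual cortex was 1 library per assay, so differences between those samples have no replicate check, and their intervals cover counting error only. Each visual cortex library came from its own mouse.

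RNA-seq and ribosome-protected fragments (RPFs) were counted in the reading frame without its first 50 nt, and tails were counted as tags, 1 for each sequenced mRNA end. The 42 libraries used held 448022 to 7689624 reads on genes in RNA-seq, 2812215 to 23212489 in RPFs, 389654 to 1057812 tags in TAIL-seq and 86841 to 4812273 tags in PAL-seq v2. RNA of both hippocampi was poly(A)-selected, whereas that of the adult cortex and of 6 cultures was depleted of rRNA. Bulk samples cannot separate fewer cells of a type from less RNA per cell. The adult tissues hold other brain cells: the summed level of 5 oligodendrocyte markers was 2117 and 2307 RPKM (reads per kb of reading frame per 1000000 reads on genes) in the adult hippocampus and cortex, against 7.52 to 21.8 in the 9 cultures, where all 5 were at 0 in some library and Mobp was at 0 in every one. The 5 astrocyte markers summed to 355 to 2277 in the 3 tissues and 566 to 1060.3 in the cultures, the 5 microglia markers to 41.5 to 206 and 1.07 to 28.2, the 3 endothelial markers to 14.8 to 53.8 and 0 to 3.74, and the 5 neuron markers to 2055 to 4943 and 2466 to 3339. Markers of dividing and immature cells summed to 1365 in the embryonic hippocampus and at most 315 elsewhere. The part of these cells in the results below was not tested.

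The members were short genes. Their reading frames had a median of 571.5 nt against 1344 nt over all genes, their 3′ UTRs 288.5 against 915 nt, their 5′ UTRs 60 against 162 nt, and they had 5 exons against 8. They lay on 17 chromosomes, with the most on chromosome 11, which held 11. A protein-coding gene in head-to-head orientation began within 1000 bases of 24 of 78 members (30.8%), compared with 9.15% of 17000 genes, 15.5% of the cytosolic ribosomal protein genes and 27.9% of the oxidative phosphorylation genes. For Mrpl46 and Mrps11 the partner was the other one, with 42 bases between the 2 starts. Mrps12 lay 136 bases from Sars2, which encodes the mitochondrial seryl-tRNA synthetase, and Mrpl47 lay 302 bases from Ndufb5, which encodes a complex I subunit. Overlap with another protein-coding gene, which can mix reads, occurred for 13 members (16.7%, against 15.1% of all genes), among them Mrps6, Mrpl49 and Mrpl19.

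RefSeq promoter windows of GRCm38.p6, 300 bases from 250 before to 50 after a start, were at hand for 69 members in 75 windows. Mrpl13, Mrps35, Mrpl4, Mrpl38, Mrpl19, Mrps28, Mrpl15, Mrpl54 and Mrps34 had none. The letters CCGGAAG, the core that ETS factors such as GABPA bind, stood on either strand in 26 windows (34.7%), against 8.86% of all 32851 windows. AAGATGGC, bound by YY1, stood in 12 (16%) against 2.75%, GCGCATGC, the NRF1 core, in 8 (10.7%) against 2.71%, and GGGCGG, bound by SP factors, in 39 (52%) against 35.7%. The members' windows were also richer in G and C, with a median of 58.7% against 52.7%. Cytosolic ribosomal protein genes had the ETS letters in 35.5% of windows and oxidative phosphorylation genes in 23.0%. Such matches describe the letters and are not binding sites. The windows of 4 members are shown to 30 bases after the start, 5′ to 3′ on the gene's strand, with the 4 motifs in capitals. Mrps12 and Mrpl32 held 3 kinds each, and Mrps11 and Mrpl46 share the stretch between their starts. The stretch shown for Mrps12, a protein of the decoding centre, is chr7:28741792-28742071 on the minus strand, with YY1, SP and ETS letters. That of Mrpl32, a large subunit protein matured by the m-AAA protease, is chr13:14613008-14613287 on the minus strand, with YY1, NRF1 and SP letters, of which NRF1 occurs repeatedly. The stretches of Mrps11 (chr7:78782881-78783160, plus strand) and Mrpl46 (chr7:78783060-78783339, minus strand) hold the same SP letters.
Mrps12: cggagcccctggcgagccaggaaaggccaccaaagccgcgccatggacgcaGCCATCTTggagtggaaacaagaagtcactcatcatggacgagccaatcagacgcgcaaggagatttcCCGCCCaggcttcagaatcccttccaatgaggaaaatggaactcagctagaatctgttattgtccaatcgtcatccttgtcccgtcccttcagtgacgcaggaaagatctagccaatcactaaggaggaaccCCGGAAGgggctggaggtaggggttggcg
Mrpl32: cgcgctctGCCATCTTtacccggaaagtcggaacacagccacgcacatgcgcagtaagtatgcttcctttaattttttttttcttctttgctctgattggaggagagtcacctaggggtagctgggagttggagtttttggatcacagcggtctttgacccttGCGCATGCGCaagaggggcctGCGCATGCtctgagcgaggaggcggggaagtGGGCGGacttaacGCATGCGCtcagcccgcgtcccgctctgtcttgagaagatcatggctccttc
Mrps11: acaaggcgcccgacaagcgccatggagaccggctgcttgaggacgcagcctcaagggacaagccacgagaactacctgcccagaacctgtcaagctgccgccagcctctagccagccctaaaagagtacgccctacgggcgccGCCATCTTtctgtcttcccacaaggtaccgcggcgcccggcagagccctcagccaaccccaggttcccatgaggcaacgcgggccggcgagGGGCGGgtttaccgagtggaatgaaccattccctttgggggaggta
Mrpl46: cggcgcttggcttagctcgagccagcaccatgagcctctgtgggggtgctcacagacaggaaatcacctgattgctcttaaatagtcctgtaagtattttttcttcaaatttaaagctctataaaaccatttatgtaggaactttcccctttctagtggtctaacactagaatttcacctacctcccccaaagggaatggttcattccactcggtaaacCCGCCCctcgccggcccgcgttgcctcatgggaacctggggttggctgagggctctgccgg

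The members took a smaller share of the RNA-seq reads in the tissues than in any culture, but not of the RPFs. Summed over members, RNA-seq gave 2207 RPM (counts per 1000000 counts on genes) in the adult hippocampus, 2420.0 in the embryonic hippocampus and 2038 in the adult cortex, against 3529 (glu/gly) to 4171 (unstimulated) in the 9 cultures, and the 2 ranges did not overlap. RPFs gave 2490, 3085 and 2439 RPM in the same tissues and 2165 (glu/gly) to 2676 (KCl 10 min) in the 7 cultures with RPF libraries, so those ranges overlapped. TAIL-seq tags, which do not depend on length, gave 5059 RPM in the adult cortex and 5672 (BDNF) to 7060.5 (KCl control) in the cultures. In the visual cortex PAL-seq v2 gave 4753 to 4976 RPM in the dark mice and 4591 to 5138 in the light mice, which overlapped, and 6508 and 7508 RPM in the adult and embryonic hippocampus, above every visual cortex library. Oxidative phosphorylation genes also took less of the RNA-seq reads in the tissues (8759 to 12598 RPM) than in the cultures (19709 to 24323), as did the 4 other lists of mitochondrial translation: the summed level of 23 mitoribosome assembly factors, for example, was 429 to 486 RPKM in the tissues and 569 to 785 in the cultures.

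Within the list, levels in the RNA differed by gene, and the order of genes was alike from sample to sample. Spearman's rho of the members' levels per kb between 2 RNA-seq libraries ran from 0.68 to 0.92, as a description, since the libraries share the gene lengths. Mrpl20, a bL20 homologue of the large subunit core (chr4:155802878-155808831), was the most abundant, at a median of 329 RPKM, with 144 in the adult hippocampus, 142 in the embryonic hippocampus, 184 in the adult cortex and 305 to 406 in the cultures. Its 3 tissue values lay below its culture values. Mrpl33 (median 237, range 63.3 to 332), Mrpl52 (206, 113 to 304), Mrps14 (183, 71.2 to 210.0) and Mrpl28 (171, 72.9 to 202) followed, and the ranges of these 5 genes overlapped. Mrpl52, which is specific to mitochondria, was the one of the 5 with its highest value in a tissue, 304 in the embryonic hippocampus against 139 in the adult hippocampus and 113 in the adult cortex. The lowest members with reads in most libraries were Mrpl22 (median 24.2, range 11.3 to 30.7), Mrps18b (23.1, 6.53 to 45.8), Mrps2 (20.4, 4.52 to 24.4) and Mrps33 (9.99, 0.507 to 31.0). Mrps36 had 6 reads in the adult hippocampus, 2 in the embryonic hippocampus and 1 each in the unstimulated culture and the KCl control, and 0 in the other 8 libraries. Mrpl23 was at 0 in every RNA-seq and RPF library and had 17 TAIL-seq and 18 PAL-seq v2 tags in all.

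Median levels per kb were 81.8 for the large subunit (51 genes) and 63.1 for the small subunit (26), and 89.6 for members with a bacterial counterpart (46) and 72.1 for those specific to mitochondria (31). All of these ranges spanned more than the gap between their medians. The stalk protein Mrpl12 is known to be present in several copies per particle and to bind the mitochondrial RNA polymerase. Its level (median 116, range 61.7 to 177) was the 17th of 77. In the adult hippocampus, 74 members had at least 30 RNA-seq reads and at least 30 RPFs. The SD of their log2 levels per kb was 0.82 in RNA and 1.10 in RPFs, so these members differed more from each other in RPFs than in RNA. The same SDs were 1.61 and 1.59 for 37 cytosolic ribosomal protein genes. In the KCl control, the deepest culture with both assays, the SDs of 67 members were 0.81 in RNA and 0.88 in RPFs.

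Tail libraries placed some members differently. Mrps21, a bS21 homologue (chr3:95862634-95871514), had 465 RNA-seq reads and 3026 RPFs over all libraries but 31 TAIL-seq tags and 0 PAL-seq v2 tags. Mrpl9 (1300 reads, 4 PAL-seq v2 tags), Mrpl48 (563 and 3), Mrpl21 (611 and 2), Mrpl22 (292 and 3) and Mrps18b (257 and 3) were also nearly without PAL-seq v2 tags. Mrps33 (chr6:39801804-39810936) was the reverse, with 44 reads and 350 RPFs against 364 TAIL-seq and 1507 PAL-seq v2 tags. A tag is assigned by the mRNA end and a read by the reading frame, and which annotation each library met was not tested.

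Translational efficiency (TE, the log2 ratio of RPF to RNA-seq RPM) was computed on the scale of the authors' RPM columns, not the RPM defined above. Genes needed at least 10 RPM in RNA-seq on that scale and at least 1 RPF, which 59 of the 78 members reached in some sample. The members stood near or above the median gene in the tissues and below it in every culture. The members' median minus that of all genes was 0.05 in the adult hippocampus (41 members), 0.36 in the embryonic hippocampus (54) and 0.05 in the adult cortex (12). In the cultures it was -0.53 unstimulated (38), -0.43 with BDNF (40), -0.61 with glu/gly (35), -0.58 with GFP (27), -0.37 in the KCl control (34), -0.22 after KCl for 10 min (33) and -0.41 after 30 min (17). In all 10 samples the members lay above the cytosolic ribosomal proteins (-0.28 to -0.54 in tissues, -0.79 to -1.29 in cultures) and below the oxidative phosphorylation subunits (0.72 to 0.89 and 0.04 to 0.27). The cytosolic medians rested on only 11 to 36 of the 84 genes, and the oxidative phosphorylation medians on 60 to 67 of 86. Other genes with reading frames of at most 838.5 nt, the upper quartile of the members, were at 0.43 to 0.85 in the tissues and 0.04 to 0.22 in the cultures. Short frames as such thus also stood higher in the tissues, and that trait was not particular to the members. The members lay below these other short-frame genes in all 10 samples. In the tissues they were at 0.05 against 0.60 (adult hippocampus), 0.36 against 0.43 (embryonic hippocampus) and 0.05 against 0.85 (adult cortex).

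Because the genes that pass the cutoff differ between samples, the 9 members with a TE in all 10 samples were set apart: Mrpl2, Mrpl3, Mrpl11, Mrpl15, Mrpl20, Mrpl28, Mrpl39, Mrps7 and Mrps9. Relative to 2867 genes of the same kind, their median was 0.43 and 0.61 in the adult and embryonic hippocampus and 0.09 in the adult cortex, and -0.27 to -0.81 in the cultures. The values of single genes that follow are log2 TEs without the sample's median taken off. That median ran from 0.67 in the embryonic hippocampus to 1.44 after KCl for 30 min, so differences between samples also hold that shift. Mrpl11, which lies at the factor-binding stalk base, had log2 TEs of 2.08, 1.60 and 2.02 in the tissues and 0.49 to 1.28 in the cultures, with no overlap. Mrps9, a small subunit protein, had 1.05, 0.33 and 0.33 against -0.45 to 0.53, and these ranges overlapped. Mrpl2, of the peptidyl transferase centre, was at -0.16 in the adult hippocampus but 1.34 in the embryonic hippocampus and 1.03 in the adult cortex, against -0.14 to 0.57 in the cultures.

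Members with a bacterial counterpart had a higher median log2 TE than those specific to mitochondria in 8 of 10 samples, with the widest gaps in the adult hippocampus (1.28 for 23 genes, 0.53 for 18) and in the embryonic hippocampus (1.22 for 32, 0.92 for 22). The 6 others included the adult cortex (1.46 for 9, 1.31 for 3), the unstimulated culture (0.73 for 23, 0.57 for 15) and KCl for 10 min (0.54 for 24, 0.52 for 9). The order was the opposite with glu/gly (0.22 for 23, 0.54 for 12) and with GFP (0.68 for 19, 0.79 for 8). By single genes, the highest TEs relative to their samples rested on few samples. The values of single genes below are log2 TEs without the sample's median taken off. Mrpl35 and Mrpl49 passed the cutoff in the embryonic hippocampus alone, at 2.17 and 1.85. Mrps6, a bS6 homologue, was at 2.10 in the KCl control and 2.21 after KCl for 10 min but at 0.31 in the embryonic hippocampus. Both Mrps6 and Mrpl49 overlap another protein-coding gene, and mixing of reads was not tested. Mrpl17 had a TE in 9 samples, from 0.83 in the KCl control to 2.14 in the adult hippocampus, and Mrps5 in 3, at 1.19, 1.22 and 0.35. At the other end, Mrpl18, a uL18 homologue, was at 0.12 in the adult and -1.37 in the embryonic hippocampus, and at -0.48 with BDNF and -1.21 after KCl for 10 min. Mrpl42 was at -1.42 in the adult and 0.14 in the embryonic hippocampus. Mrps24 stood at 1.26 in the adult hippocampus and between -0.62 and 0.10 in 7 other samples, Mrps26 at 0.14 or below in 5 samples, and Mrpl46 between -0.39 and 0.94 in 9. Mrps12 had log2 TEs of 1.28 and 2.06 in the adult and embryonic hippocampus and 0.62 and 0.75 in the unstimulated and BDNF cultures. Mrpl58, a peptidyl-tRNA hydrolase that releases stalled chains, was between 0.26 and 0.92 in 6 samples, and Mrpl45, which tethers the particle to the inner membrane, was at 0.17 and 0.48 in the hippocampi.

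Between the 2 hippocampi the members differed less in RNA than genes in general, and more in RPFs than in RNA. A pair of libraries was compared for genes with at least 60 counts in both together, as the ratio of RPM with a 95% Clopper-Pearson interval. In RNA-seq, 4 of 75 members were over 1.5-fold higher in the adult and 9 were over 1.5-fold lower, whereas 27.8% and 38.8% of all genes were. The median log2 ratio was -0.22 for the members and -0.26 for all genes. Cytosolic ribosomal proteins, by contrast, had a median of -1.27, with 37 of 43 lower, and oxidative phosphorylation subunits 0.56, with 32 of 71 higher.

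The highest members in RNA were Mrps26 (chr2:130563757-130565394), with 303 adult and 128 embryonic reads and a ratio of 2.50 (interval 2.03 to 3.10), and Mrps12, with 285 and 170 reads and a ratio of 1.77 (1.46 to 2.15). The lowest were Mrpl52, with 320 and 738 reads and 0.458 (0.400 to 0.523), and Mrps35, with 181 and 368 reads and 0.520 (0.432 to 0.622). None of these intervals held 1. In RPFs, 16 of 76 members were higher and 27 lower past 1.5-fold, against 35.1% and 41.9% of all genes, and the median was -0.30 (all genes -0.21), with 0.10 for the 26 small subunit genes and -0.43 for the 50 large subunit genes. Mrpl51, a mitochondria-specific large subunit protein (chr6:125192200-125194392), had 746 adult RPFs and 104 embryonic ones, a ratio of 7.69 (6.25 to 9.53), while its RNA-seq reads were 75 and 97, a ratio of 0.817. Small subunit genes took the next places: Mrps26 (475 and 127 RPFs, 4.01), Mrps34 (1201 and 342, 3.76), Mrps15 (1135 and 339, 3.59) and Mrps18b (760 and 240, 3.39). Mrpl52 was lowest among members with RPFs in both, with 567 and 3239 and a ratio of 0.188 (0.171 to 0.205), followed by Mrpl35 (320 and 1718, 0.200) and Mrps27 (220 and 1129, 0.209). Mrps10 had 0 adult RPFs against 122 embryonic ones, so that the ratio was at most 0.0329, although it had 51 and 75 RNA-seq reads. Mrps10 had RPFs in the other 9 samples.

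In the adult cortex, 36 of 42 members were over 1.5-fold lower in RNA-seq than in the unstimulated DIV14 culture and 0 were higher, against 32.1% and 26.1% of all genes. The median log2 ratio was -1.11 for the members, -0.16 for all genes, -0.997 for oxidative phosphorylation subunits and -0.72 for other genes with short frames. The lowest were Mrpl32, with 27 and 36 reads and a ratio of 0.223 (0.130 to 0.378), and Mrps26, with 42 and 44 reads and 0.284 (0.182 to 0.444). The highest were Mrpl38, with 68 and 19 reads and 1.07 (0.633 to 1.88), and Mrpl58, with 70 and 25 reads and 0.833 (0.521 to 1.37), and both intervals held 1. The other assays of the same samples gave smaller differences. In RPFs, 1 of 75 members was higher and 2 were lower past the fold (18.5% and 20.9% of all genes), with a median of -0.01 (all genes -0.06). In TAIL-seq tags the median over 62 members was -0.20 (all genes -0.06). Other short-frame genes had medians of 0.01 in RPFs and -0.20 in tags. The 2 samples differed in cell makeup, in age and in being tissue or culture, and the adult cortex stood apart in glial markers, so these cannot be told apart here. Why RNA-seq gave a larger difference than RPFs and tags was not tested.

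After stimulation the members' median log2 ratios in RNA-seq lay between -0.30 and -0.02. After BDNF, 0 of 24 members were higher and 2 lower past 1.5-fold in RNA-seq (3.24% and 3.92% of all genes), with a median of -0.30 (all genes 0.01). Mrps31 (20 against 45 reads, 0.472, interval 0.264 to 0.815) and Mrpl12 (24 against 50, 0.509, 0.299 to 0.844) were the lowest, and Mrps25 (45 against 38) and Mrps18a (60 against 56) were the highest, with intervals that held 1. After glu/gly, 0 of 27 were higher and 5 lower (7.12% and 6.03%), with a median of -0.24 (all genes -0.03). Mrps31 was again lowest (24 against 45, 0.451, 0.263 to 0.756), then Mrpl11 (33 against 52, 0.537, 0.336 to 0.846), and Mrpl3 and Mrps9 were highest at 1.19 and 1.15. Both stimuli were read against the same unstimulated library. The GFP culture, which received no stimulus, had a median of -0.13 (all genes 0.01) against that same library, with 0 of 26 members higher and 1 lower (5.56% and 6.53%): Mrpl52, at 20 against 41 reads (0.554, 0.307 to 0.967), was lowest, Mrpl24 (0.681) next, and Mrpl17 (1.36) and Mrpl46 (1.20) were highest. In TAIL-seq tags of the same cultures the members' medians were -0.17 (BDNF), 0.010 (glu/gly) and 0.10 (GFP), so that of these 3 cultures the BDNF culture alone kept its direction.

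KCl was compared with its own DIV10 control. At 10 min, 2 of 55 members were higher and 1 lower (3.4% and 4.37% of all genes), with a median of -0.13 (all genes 0.00), and at 30 min 4 of 59 were higher and 7 lower (9.47% and 13.4%), with a median of -0.02 (all genes -0.02). Mrpl1, a large subunit protein, had 41 reads in the control, 29 at 10 min (ratio 1.59, 0.951 to 2.62) and 63 at 30 min (2.28, 1.51 to 3.46). Mrpl46 (45 against 66 reads, 1.53) at 10 min and Mrps18c (52 against 36, 2.14, 1.37 to 3.37) at 30 min were the other high members. Mrps23 (14 against 61 reads, 0.515, 0.266 to 0.931) and Mrpl17 (0.669) were lowest at 10 min, and Mrpl10 (29 against 87, 0.494, 0.313 to 0.760) and Mrpl35 (0.519) at 30 min. The KCl control itself, set against the unstimulated DIV14 culture, had 4 of 55 members higher and 4 lower (13.2% and 8.88%) and a median of -0.08 (all genes 0.02), with Mrpl50 (1.83) and Mrps6 (1.79) highest and Mrps26 (0.524) and Mrps25 (0.629) lowest, and its median in TAIL-seq tags was 0.15.

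The microRNA cultures were compared with GFP. With miR-1, 5 of 43 members were higher and 1 lower (6.6% and 6.3% of all genes), with a median log2 ratio of 0.09 (all genes 0.01), and with miR-155 3 of 64 were higher and 3 lower (7.77% and 6.45%), with a median of -0.03 (all genes 0.01). Mrps26 was highest in both, at 71 against 13 reads (2.53, 1.39 to 4.97) and 131 against 13 (2.14, 1.21 to 4.12), and Mrpl4 was lowest in both, at 37 against 37 reads (0.463, 0.285 to 0.750) and 101 against 37 (0.579, 0.394 to 0.869). The 2 comparisons share the GFP library. Mrpl38 (2.31) with miR-1 and Mrpl52 (1.79) with miR-155 were the next highest, and Mrps9 (0.795) and Mrpl48 (0.599) the next lowest.

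The members' poly(A) tails were slightly shorter than those of the median gene. Over the 8 visual cortex mice, the mean tail had a median of 85.2 nt for the 53 members with at least 50 tags in every mouse, against 87.1 nt for 4321 genes, 68.0 nt for 37 cytosolic ribosomal proteins and 80.2 nt for 69 oxidative phosphorylation subunits. The members' median minus that of all genes was 1.36 nt in dark mouse 3 and -2.50 to -7.49 nt in the other 7 mice. In TAIL-seq, whose lengths are not set against those of PAL-seq v2, the same difference was -5.58 to -10.0 nt in the 9 cultures and -5.15 nt in the adult cortex, so the members were below the median gene in each. Unstimulated cultures, for example, had 104.6 nt for 60 members and 111.8 nt for 4364 genes. In the visual cortex the large and small subunits had medians of 84.7 nt (36 genes) and 85.3 nt (17). In TAIL-seq the small subunit had the higher median in 9 of 10 libraries, for example 107.6 against 103.0 nt unstimulated and 101.6 against 89.7 nt with GFP (5 and 9 genes), and the lower one after KCl for 30 min (95.7 against 96.3 nt), and the ranges of the 2 groups overlapped in each library. The hippocampal libraries were too shallow, since 2 members in the adult and 0 in the embryonic hippocampus reached 50 tags.

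Mrps6 had the longest tails of the members in the visual cortex, 105 nt ± 10.6 (SD, n = 8), with 91.2 to 108 nt in the dark mice and 101 to 121 nt in the light mice. Mrpl58 (99.9 nt ± 10.7), Mrpl34 (95.5 ± 9.06), Mrpl36 (94.9 ± 3.15) and Mrpl49 (93.2 ± 11.8) followed, and the values of these 5 genes overlapped. Mrps6 overlaps Slc5a3 and Mrpl49 overlaps Syvn1, and whether tags of these genes mix was not tested. The shortest were Mrpl42 (67.7 nt ± 8.03), Mrps18c (70.3 ± 7.71), Mrpl39 (70.9 ± 9.30), Mrpl52 (71.9 ± 8.94) and Mrpl2 (73.1 ± 9.21). Mrps6, at 91.2 nt or more in each mouse, stayed above Mrpl42, whose highest value was 76.5 nt. Across 52 members, the visual cortex mean and the tail in the unstimulated culture had a Spearman's rho of 0.46, against 0.61 over 3536 genes, as a description of genes in different samples and methods. The members' TE relative to their samples and their visual cortex tails had a rho of 0.36 over 45 genes, and tails had a rho of -0.44 with the number of exons over 53 genes. These too describe genes, which are not independent replicates. Both were among the largest of several correlations examined over the members, and no value over all genes stands beside them.

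Light after a week in darkness gave no called change in any member's level. Of 70 members tested with edgeR, 0 passed an adjusted p of 0.05, compared with 128 of 9554 genes (1.34%). At an unadjusted p under 0.05 there were 4 with edgeR and 2 with DESeq2, which also called 0. The median log2 change was 0.02 for the members and -0.00 for all genes, with 0.03 for 46 large and 0.00 for 24 small subunit genes. The response itself was present in these mice, since Fos, Arc, Npas4 and Egr1, genes induced by neuronal activity, all passed, with a median log2 change of 3.22.

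The 4 members with the smallest p were read by mouse, in RPM of tags after TMM scaling. Mrps2, a uS2 homologue (chr2:28468066-28471177), had 39.7, 41.3, 38.5 and 45.6 in the dark mice and 30.6, 20.8, 32.5 and 36.9 in the light mice, so every light mouse was lower (log2 change -0.45, SE 0.18, edgeR adjusted p = 0.414). It was the 1 member of 70 whose groups did not overlap, as was so for 5.67% of all genes. Mrps23, found only in mitochondria, had 70.5, 58.3, 68.3 and 64.8 in the dark and 58.7, 52.6, 48.2 and 41.7 in the light (log2 change -0.37, SE 0.14, edgeR adjusted p = 0.347), and its groups overlapped by 1 light mouse. Mrpl20 had 131, 143, 132 and 122 in the dark and 176, 167, 159 and 127 in the light (0.23, SE 0.11, edgeR adjusted p = 0.525), with light mouse 4 among the dark ones. Mrpl19 had 34.2, 48.8, 40.0 and 46.4 against 35.5, 35.1, 31.4 and 32.7 (-0.36, SE 0.17, edgeR adjusted p = 0.510), with dark mouse 1 among the light ones. Mrpl32, the fifth, had a log2 change of -0.23 (edgeR adjusted p = 0.589). Mrpl12 (0.14), Mrps12 (0.13), Mrpl58 (0.15) and Mrpl45 (-0.05) had SEs of 0.12 to 0.14.

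**Figure D1:**
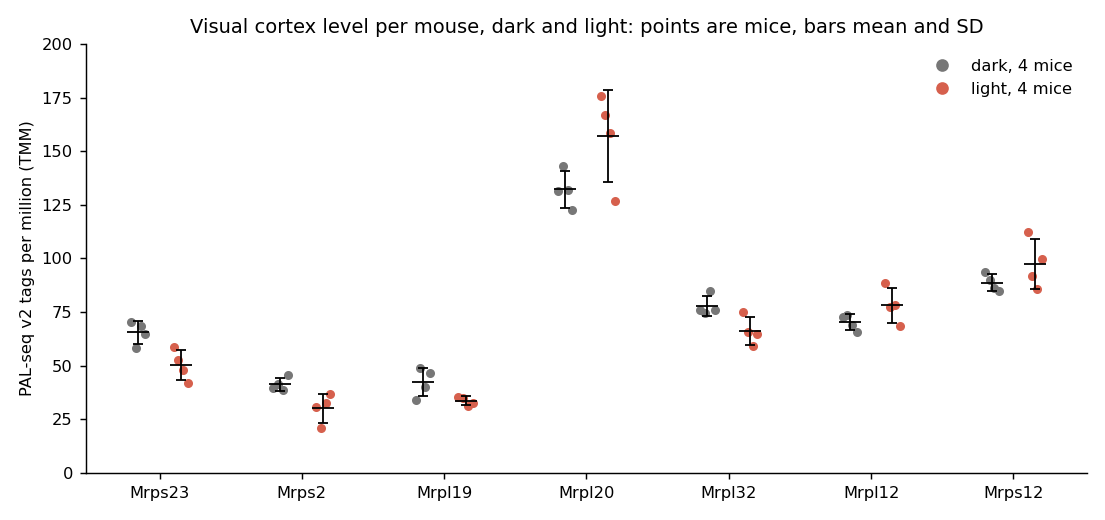
PAL-seq v2 RPM (TMM-scaled) of 7 members in the visual cortex of 4 dark (grey) and 4 light (red) mice, with bars for mean and SD. Mrps2 is the one whose groups do not overlap, and none of the 7 passed the test.

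Other genes of mitochondrial translation gave no call either. With edgeR, 0 of 5 other mitoribosome proteins such as Dap3, 0 of 9 translation factors, 0 of 12 aminoacyl-tRNA synthetases and 0 of 20 assembly factors passed, and 2 genes had an unadjusted p under 0.05, both of them assembly factors. Among these Eral1, which chaperones the small subunit rRNA, had a log2 change of 1.47 (SE 0.49, edgeR adjusted p = 0.221). Cytosolic ribosomal proteins had 0 of 53 called and a median of -0.05, and oxidative phosphorylation subunits 0 of 73 and 0.02. Of the cell type markers, those of astrocytes and oligodendrocytes had medians of -0.26 and -0.25 with 0 of 5 called each, those of neurons 0.00 and those of microglia 0.05.

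Light gave no called change in the members' tails. With limma, 0 of 53 members passed, compared with 10 of 4321 genes (0.231%), and 1 had an unadjusted p under 0.05. The median change, light minus dark, was 1.79 nt for the members and 3.75 nt for all genes, and it was below 0 for 17 of 53 members and 680 of 4321 genes. The direction of the members' median was not stable: it was -0.52 nt without dark mouse 3, -0.83 nt without light mouse 3, and -0.33 nt with tags as weights. The smallest p was that of Mrps22, a small subunit protein, with 78.9, 70.5, 71.8 and 62.2 nt in the dark and 67.2, 102, 95.8 and 73.9 nt in the light (difference 13.8 nt, SE 6.68, limma adjusted p = 0.999), and its groups overlapped. Mrpl32 (12.7 nt), Mrps6 (10.6), Mrps16 (8.64) and Mrps23 (8.34) came next, with the same adjusted p. Limma gave every gene the same SE because it found no gene-specific spread beyond the common one. Tails were not centred by mouse, and the median over all genes itself ran from 77.5 nt in dark mouse 3 to 97.5 nt in light mouse 3. Changes that are small beside this spread could be missed. The groups did not overlap for 0 of 53 members and for 0.625% of all genes. The mice of the 2 groups overlapped: the members' median was 89.9, 87.2, 78.9 and 75.2 nt in the dark mice and 78.8, 86.7, 93.1 and 78.9 nt in the light mice.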

How the data were processed

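The authors aligned reads to mm10 (STAR 2.4.2 and bedtools are named in the submitters' processing notes) and deposited, for RNA-seq and RPF libraries, whole-number counts over the coding sequence of a single transcript for every gene, leaving out the initial 50 nt, with a column of RPM. For TAIL-seq and PAL-seq v2 they deposited tag counts and a tail length per gene in nt, a mean except in both hippocampi, where it is read as a median. They also deposited a table of log2 TE, used here as an alternative only. The RPM columns set the scale and the RNA-seq cutoff of TE. Outside TE they were not used for results, since counts were divided by the reads on listed genes. A gene absent from a library was counted as 0. Symbols and gene models came from RefSeq on GRCm38.p6, which named 17006 of 17158 accessions. Replicates were not pooled.

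The members and lists were chosen with earlier results of these data known. Visual cortex counts were tested with edgeR 4.0.16 (quasi-likelihood, TMM, genes passing filterByExpr) and mean tails with limma 3.58.1 (at least 50 tags in each of 8 mice), over all genes with Benjamini-Hochberg adjustment, and DESeq2 1.42.0 was an alternative. The groups shared sample numbers but not animals, so they were not paired. Sample pairs with 1 library each had no test: genes with at least 60 counts together were compared as count ratios with 95% Clopper-Pearson intervals, in Python 3.11.15 with SciPy 1.17.1, and a count of 0 allows up to 3. Both procedures were tested on simulated data. Members named are the 5 highest and 5 lowest by level, TE and tail, the 5 smallest p in each visual cortex test, the 2 highest and 2 lowest in RNA-seq for each pair, those with no reads, and Mrps36, Mrpl12, Mrps12, Mrpl58 and Mrpl45; further members named for RPFs, tags or shared promoters were chosen after their values were seen. Of 44 samples, 2 RPF libraries of the miRNA cultures carry titles that name different miRNAs and were not used. A list of combined visual cortex values was not used either.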

Additional observations from a re-analysis of the deposited data

Results flagged for a closer look

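In the 4 dark mice, Mrpl32 had 84.8 RPM of tags in mouse 3 and 74.5 to 76.0 in the other 3, a gap of 0.857 of the whole range, above Dixon's 95% critical value for 4 samples. This was 1 of 58 sets of 4 mice examined for the members named in the visual cortex, and about 1 in 20 such sets passes that value by chance. Mrpl32 had no called change with light, in level or in tail.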

How the results depend on the processing

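The visual cortex results kept 0 called members and medians within the spread between mice under every setting. With the sample number as a block, though the numbers tie no animals (correlations of same-numbered mice -0.20 to 0.03 in expression and -0.11 to 0.04 in tails), edgeR and limma called 0 members, with medians of 0.01 and 1.79 nt. Leaving out 1 mouse at a time gave medians of -0.00 to 0.05 on the log2 scale and -0.83 to 3.66 nt, with 0 calls, and tags as weights gave a tail median of -0.33 nt. The tail median was below 0 without dark mouse 3 (-0.52 nt) or light mouse 3 (-0.83 nt).

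Relative TE at 30 RPM of the authors' RPM columns was 0.78 in the embryonic hippocampus (2 members), -0.24 unstimulated (1) and -0.75 with glu/gly (1). No member passed in the other 7 samples. Counts of members past 1.5-fold move with the minimum and the assay. They are given here without direction and without the share of all genes, so they describe the settings and not the members. With 120 reads they were 8 (of 9) for adult cortex, 1 (of 19) for KCl control, 0 for GFP, BDNF, glu/gly, KCl 10 min and miR-1, and 3 for KCl 30 min and miR-155. In tail tags they were 0 (of 3) for the hippocampi, 18 for adult cortex, 5 for KCl control, 11 for GFP, 4 for BDNF, 3 for glu/gly, 6 and 3 for KCl 10 and 30 min, and 3 for miR-155. Median ratios centred on all genes were 0.038 (hippocampi) and -0.96 (adult cortex). Median ratios in tags, without centring, were -0.064 (hippocampi), -0.20 (adult cortex), 0.15 (KCl control), 0.10 (GFP), -0.17 (BDNF), 0.010 (glu/gly) and -0.11 (miR-155). With 120 reads the median ratios were -0.16 (BDNF, 2 members) and 0.049 (KCl 30 min). So the direction of the small medians for KCl control, GFP and glu/gly turned with the assay; the cause was not tested.

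Relative tails at 100 tags were -10.3 (unstimulated), 0.53 (KCl 10 min, 4 members), -14.5 (KCl 30 min), -2.96 (adult cortex, 1), -9.47 (GFP, 2) and -10.3 nt (miR-155, 2), and at 20 tags -3.16 (adult cortex) and -6.73 (miR-1). Median shares were 8649 (RNA-seq) and 5879 (RPF) RPM per kb, and without the 100 most abundant genes 3129 RPM (RPF), 7972 (TAIL-seq) and 5939 (PAL-seq v2). Depth limited the pairs with BDNF, glu/gly and GFP, where 24 to 27 of 78 members had 60 reads, and the hippocampal tails, where 2 and 0 members had 50 tags.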
